A study of Mus musculus with 6 samples.

Results

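Chromatin accessibility was examined at 49 genes that encode histone acetyltransferases, histone deacetylases, acetyl-lysine readers and ATP-dependent chromatin remodellers, in muscle stem cells (MuSCs) with and without the TFIID subunit TAF4A. The genes form a fixed list of gene symbols, and their regions are all ATAC-seq peaks that the deposited table annotates with one of these symbols. Of the 49 genes, 43 had such a peak, giving 69 of the 75412 peaks of the table. For each gene the peak with the smallest distance to the transcription start site (TSS) is called the TSS peak (43 peaks), and the remaining 26 peaks, which belong to 19 of the genes, are called other peaks. A single peak was annotated to 24 genes, 2 peaks to 12 genes and 3 peaks to 7 genes. ATAC-seq reads out where the Tn5 transposase can insert into DNA, and each value below is the authors' read count of a peak, normalized for sequencing depth and rounded to a whole number. Control and Taf4a sKO mice, both of strain C57BL/6, gave 3 libraries each from freshly isolated MuSCs. Taf4a sKO mice carried Taf4a fl/fl alleles, with exons 11 and 12 between loxP sites, and a tamoxifen-activated Cre expressed from Pax7, so that recombination was directed to Pax7-expressing MuSCs of adult muscle. Controls were littermates with Taf4a fl/fl alleles that either lacked the Cre allele or carried it on 1 chromosome, and which of these gave the ATAC-seq libraries is not given in the sources used here. The paper names tamoxifen treatment in its definition of Taf4a sKO mice and not in that of controls. Whether the controls of these libraries received tamoxifen is not given either. Adult animals of both sexes were used in the study. MuSCs were sorted by surface markers or by a fluorescent reporter.

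Histone acetyltransferases transfer acetyl groups to lysines of histone tails, which loosens the contact of nucleosomes with DNA and creates binding sites for bromodomain proteins. Histone deacetylases and the NAD-dependent sirtuins remove these groups. Remodellers of the SWI/SNF, CHD, ISWI and INO80 families use ATP to slide, evict or exchange nucleosomes. In MuSCs such enzymes are known to cooperate with myogenic transcription factors when cells leave quiescence and differentiate, and class IIa deacetylases are known to repress MEF2-dependent muscle genes.

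The labels were checked at the targeted gene, listed as Taf4. The peak over exon 12 (chr2:179922849-179923263) had 65, 78 and 137 in control and 44, 22 and 25 in Taf4a sKO libraries, a log2 fold change of -1.58 ± 0.30 (SE, limma adjusted p = 0.000336), and the groups did not overlap. A peak over exon 7, outside the deleted exons, was lower as well (-0.83 ± 0.15 SE, limma adjusted p = 0.000135). The values of a library summed to between 35226223 and 44311913 over all peaks. All 10 listed MuSC markers had a TSS peak, with summed values of 15134 to 18560 in control and 16173 to 17262 in Taf4a sKO MuSCs, and of these Vcam1 was higher (log2 fold change 0.35) and Pax7 lower (-0.32). Markers of cells that the sort should remove were summed in the same way. Endothelial markers (5 of 6 with a peak, Tie1 without) reached 1876 to 2493 in control and 3472 to 3550 in Taf4a sKO libraries, where Egfl7 (446, 564 and 648 against 1479, 1521 and 1662) and Tek (log2 fold change 0.40) were higher and Kdr, Cdh5 and Pecam1 were not called (0.15, 0.11 and 0.065). The Egfl7 peak lay 6715 bp and the Tek peak 62 bp from the TSS. Haematopoietic markers (3 of 7 with a peak, while Ptprc, Laptm5, Cd53 and Lyz2 had none) reached 821 to 980 and 1081 to 1302. Of these 3, Csf1r was higher (log2 fold change 0.90), while Spi1 (0.29) and Coro1a (-0.22) were not called. Their peaks lay 2189 to 8036 bp from the TSS. Fibro-adipogenic markers (5 of 6 with a peak, Ly6a without) reached 1515 to 1657 and 1901 to 2035, with Lum, Dcn and Col15a1 higher and Pdgfra (log2 fold change -0.68) and Cd248 (-0.35) lower, and myofibre markers (5 of 5) reached 1380 to 1522 and 1224 to 1449. No marker peak was at 0. The endothelial, haematopoietic and fibro-adipogenic sums did not overlap between genotypes and moved together with every difference reported below, and their part in those differences was not tested. In bulk libraries fewer cells of a type and less accessibility per cell cannot be told apart.

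TSS peaks of these genes differed little between genotypes. Of the 43 TSS peaks, Taf4a sKO MuSCs had 2 that were higher (Hdac4 and Sirt2) and 3 that were lower (Hdac9, Hdac7 and Sirt7), each at an adjusted p under 0.05 from limma with Benjamini-Hochberg adjustment over all 75384 peaks tested. That is 4.65% higher and 6.98% lower, beside 11.5% higher and 7.22% lower among the 14219 TSS peaks of all protein-coding genes. None was gained and 1 was lost by the threshold of a doubling or halving of the group means with a mean above 10 (log2 ratio beyond 1), which 1.45% of all such TSS peaks passed as gained and 1.56% as lost. The median log2 fold change was 0.078 over the members and 0.056 over all protein-coding TSS peaks. The authors' scaling placed the median of all peaks at 0.11, and TMM factors moved it to -0.0059. With TMM the member median was -0.034, and 4 TSS peaks were higher and 11 lower, against 2 and 3. Over all 14219 protein-coding TSS peaks TMM gave a median of -0.056, with 1588 higher and 3311 lower, so the members were near that share. Control replicate 3 had the largest leverage on the members' 2 higher and 3 lower calls. Without it 11 TSS peaks were higher. None was without control replicate 2, and 1 was without control replicate 1 or any Taf4a sKO replicate. Without control replicate 1 or Taf4a sKO replicate 2, 1 peak was lower.

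**Figure D1:**
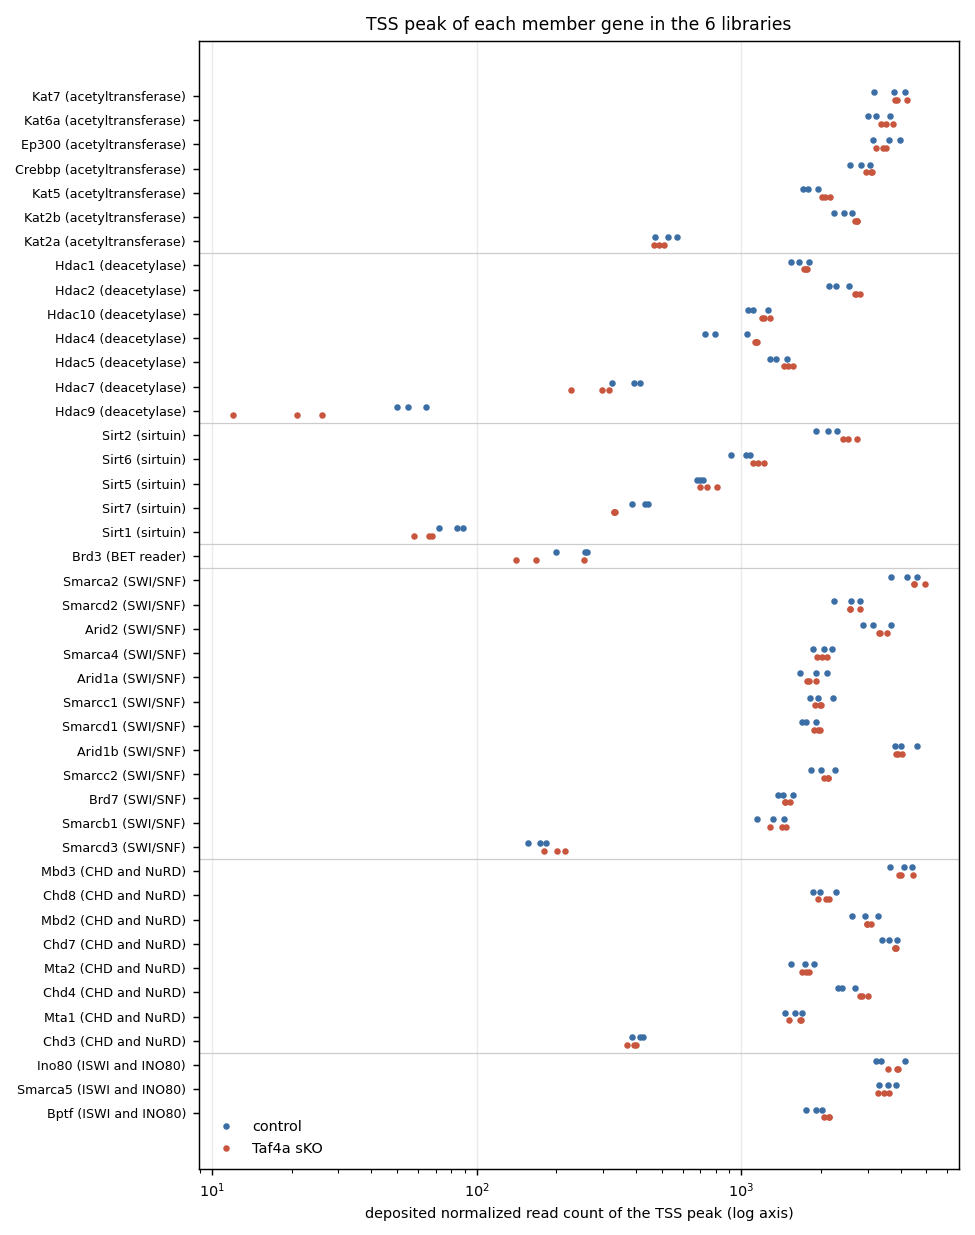
Deposited normalized read count of the TSS peak (x axis, log scale) of the 43 member genes with a peak, grouped by role on the y axis, with 1 point per library (blue, 3 control; red, 3 Taf4a sKO). For most genes the points of the genotypes interleave, Hdac9 stands apart at the low end with 50 to 64 in control and 12 to 26 in Taf4a sKO MuSCs, and the weakest peaks belong to Hdac9 and Sirt1.

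By role, the TSS peaks of SWI/SNF, acetyltransferase, CHD, NuRD, ISWI and INO80 genes were spread over a narrow range. Among the 12 SWI/SNF subunits the log2 fold changes lay between -0.075 (Arid1b, a DNA-binding subunit of the BAF complex) and 0.22 (Smarcd3, the subunit known to link BAF to cardiac and skeletal muscle genes). None of the 12 was called by limma, and none had an unadjusted p under 0.05. With TMM factors 4 of them, Arid1b, Arid1a, Smarcc1 and Smarca4, were lower, with log2 fold changes of -0.13 to -0.19. The Smarcc1 peak also holds the start of another gene, Dhx30. The peak at the RefSeq start of Smarcc1, described below, was not called with TMM factors (log2 fold change 0.0094). The catalytic subunits Smarca4 (BRG1) and Smarca2 (BRM) had log2 fold changes of -0.015 and 0.15. None of the 7 acetyltransferases was called, with log2 fold changes from -0.099 (Kat2a) to 0.20 (Kat5) and no unadjusted p under 0.05. With TMM factors 1 of the 7, Ep300, was lower (log2 fold change -0.18). None of the 8 CHD and NuRD genes was called, 1 had an unadjusted p under 0.05, and with TMM factors that gene, Chd4, was higher (0.12). ISWI and INO80 genes (Smarca5, Bptf and Ino80) were not called either, lay between -0.050 and 0.16 and had no unadjusted p under 0.05, and with TMM factors Smarca5 was lower (-0.16). The peak nearest to Brd3, a BET reader, lay 3276 bp upstream and was not called (log2 fold change -0.38 ± 0.19 SE, limma adjusted p = 0.120). With TMM factors it was lower (-0.49, limma adjusted p = 0.0360), as it was under each other alternative scaling. All 5 TSS peaks called with the authors' scaling belonged to deacetylases (1 higher and 2 lower of 7) and sirtuins (1 higher and 1 lower of 5). Log2 fold changes ranged from -1.53 to 0.42 over the deacetylases and from -0.35 to 0.28 over the sirtuins. Whether roles differed in this respect was not tested.

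The members' TSS peaks were strong. Their median level in control was 1357 per kb of peak, and the median member stood at percentile 67.2 of all protein-coding TSS peaks. Mbd3, the methyl-CpG-binding domain subunit of NuRD, had the highest level per kb (2825 in control), with 4112, 3654 and 4423 in control and 4470, 3993 and 3951 in Taf4a sKO libraries. The genotypes overlapped at Mbd3 (log2 fold change 0.029 ± 0.10 SE, limma adjusted p = 0.846, with a sign that turned under each other scaling). With equal total signal and with quantile normalization Mbd3 was called lower (log2 fold changes -0.12 and -0.071, limma adjusted p = 0.0121 and 0.0405). The lowest level per kb (177) was that of Hdac9, whose peak lies away from its TSS. Among the 40 TSS peaks within 1000 bp of the TSS, the log2 fold changes had an SD of 0.14, beside 0.29 over all protein-coding TSS peaks within that distance. The 77 TSS peaks of further acetylation and remodelling genes, described below, had an SD of 0.10 at any distance. No set matched for peak level was compared. The members' summed TSS signal held between 0.447% and 0.452% of that of all protein-coding TSS peaks in each of the 6 libraries, and the genotypes overlapped.

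Hdac4, a class IIa deacetylase that shuttles between nucleus and cytoplasm, had the strongest rise at a TSS peak (chr1:92195634-92196437, 337 bp from the annotated TSS). The values were 796, 730 and 1052 in control and 1134, 1146 and 1128 in Taf4a sKO libraries. All Taf4a sKO libraries were above all control libraries, and control replicate 3 was the closest to them. The log2 fold change was 0.42 ± 0.12 (SE, limma adjusted p = 0.00840), and the call was lost without control replicate 2 (adjusted p = 0.0635) and without limma's variance trend (0.0634), in a range of 9.67e-06 to 0.0635 over 16 alternatives.

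Sirt2, a deacetylase of tubulin and of histone H4, had 2131, 1915 and 2303 in control and 2735, 2520 and 2422 in Taf4a sKO libraries at chr7:28766078-28767210, which covers its TSS. Every Taf4a sKO library was above every control library. The log2 fold change was 0.28 ± 0.10 (SE, limma adjusted p = 0.0346). The call did not hold without control replicate 1, control replicate 2 or any single Taf4a sKO replicate, where the adjusted p was between 0.0650 and 0.169, nor without the variance trend (0.123); over all 16 alternatives it ranged from 0.00166 to 0.169.

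Sirt7, a nucleolar sirtuin known for deacetylating histone H3, moved the other way (chr11:120624410-120625332, covering the TSS). Its values were 431, 386 and 445 in control and 329, 329 and 333 in Taf4a sKO libraries. The Taf4a sKO values were nearly equal and all below control. The log2 fold change was -0.35 ± 0.13 (SE, limma adjusted p = 0.0367), and without control replicate 1 or any single Taf4a sKO replicate the adjusted p was 0.0868 to 0.116, in a range of 0.000512 to 0.116 over 16 alternatives.

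The remaining lower calls lay inside introns, far from the start of the gene. The peak nearest to the Hdac9 TSS (chr12:34906851-34907169) was 10085 bp away and had 50, 55 and 64 in control and 12, 26 and 21 in Taf4a sKO libraries. No value overlapped, the log2 fold change was -1.53 ± 0.30 (SE, limma adjusted p = 0.000307), the peak counted as lost, and the call held under the 15 alternatives in which the peak was tested. For Hdac7, known as a repressor of MEF2 in thymocytes and endothelium, the nearest peak (chr15:97839672-97840443) was 4444 bp from the TSS, with 392, 324 and 414 in control and 315, 227 and 298 in Taf4a sKO libraries. The highest Taf4a sKO value stayed under the lowest control value there, by a small margin. Its log2 fold change was -0.43 ± 0.15 (SE, limma adjusted p = 0.0244), and the call was lost without control replicate 1 (0.0531), without Taf4a sKO replicate 2 (0.183) and without the variance trend (0.0717), in a range of 0.00108 to 0.183 over 16 alternatives. With TSS peaks limited to those within 1000 bp, 2 of 40 were higher and 1 was lower.

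**Figure D2:**
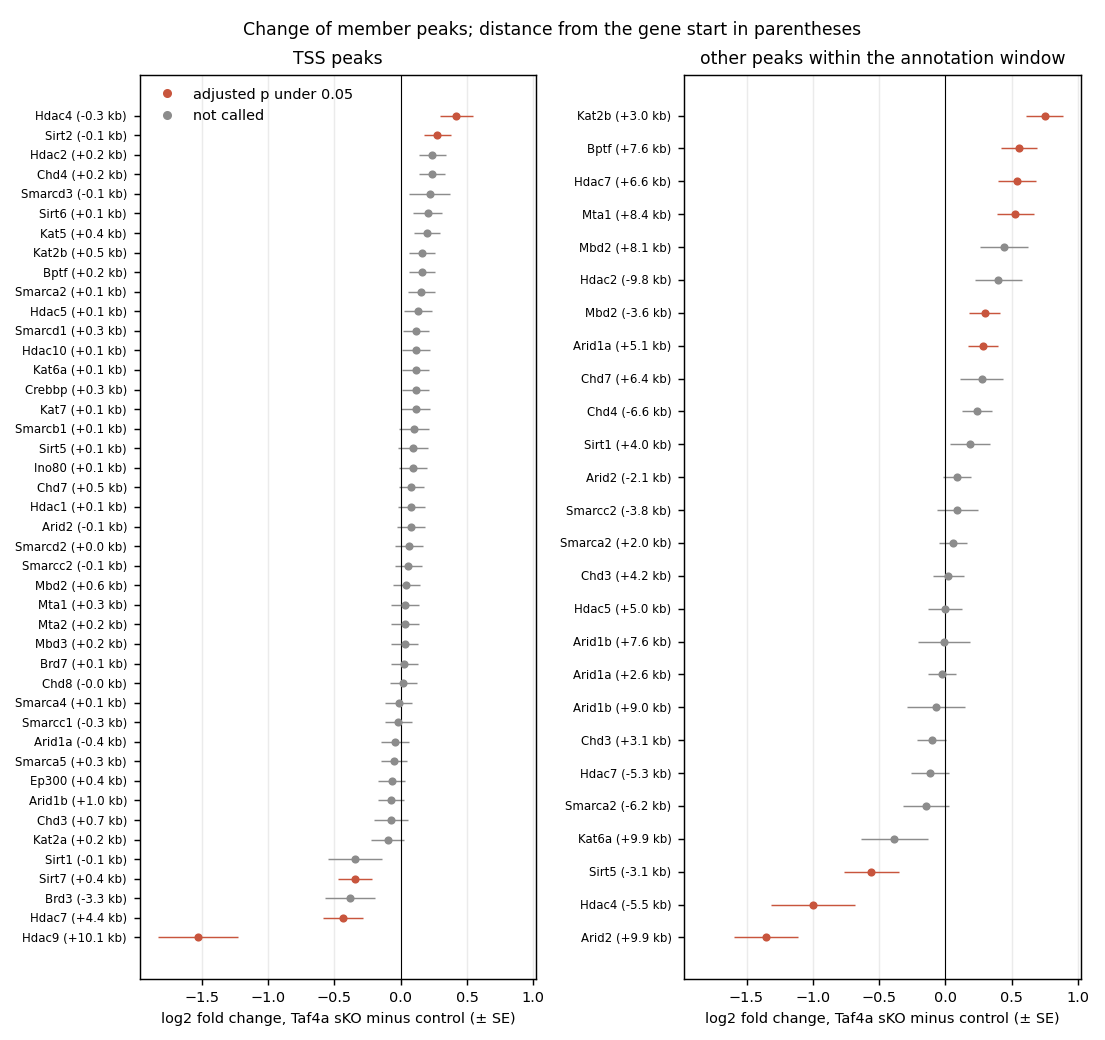
Log2 fold change with its SE (x axis, Taf4a sKO minus control, n = 3 each) of the 43 TSS peaks (left) and the 26 other peaks (right), each labelled with its gene and its distance from the gene start in kb, and red where the adjusted p from limma was under 0.05. TSS peaks within 1000 bp of the start lie between -0.35 and 0.42, while other peaks reach from -1.35 to 0.75.

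The gene start used by the deposited annotation is not always the start of the RefSeq transcript. A RefSeq promoter window (250 bases before to 50 bases after the start, build GRCm38.p6) was found for 41 members. Arid2, Chd3, Chd7, Hdac1, Hdac3, Hdac10, Kat6a and Mbd2 are not matched there. Of the 36 windows of members with a TSS peak, 28 touched that peak and 8 did not. For Hdac4, Sirt1, Smarcc1, Smarcd3 and Brd3 the RefSeq start lay 14634 to 42751 bp from the centre of the TSS peak, inside another peak of 1761 to 4985 in control. These 5 peaks were not called by limma, with log2 fold changes from -0.077 to 0.14 and, with TMM factors, lower calls at Sirt1 (-0.19) and Smarcd3 (-0.15). At the RefSeq start of Hdac4 the values were 4921, 4457 and 5578 in control and 5841, 5308 and 5228 in Taf4a sKO libraries. Those overlapped (log2 fold change 0.14 ± 0.10 SE, limma adjusted p = 0.308), so the rise of Hdac4 was at the weaker, upstream start and was not detected at the stronger one. The difference between these peaks was not tested. At Sirt1, which encodes the sirtuin known to couple NAD levels to MuSC quiescence, the annotated TSS peak held 81.7 in control on average and the peak at the RefSeq start 2594. No peak held the RefSeq start looked up for Hdac7, Hdac9, Smarcd2 or Ncor1. Hdac7, Hdac9 and Ncor1 have 4, 2 and 2 RefSeq windows. Only the window closest to the TSS peak was looked up for Hdac7 and Hdac9, and only the first listed for Ncor1. The GENCODE start of Ncor1 does lie in a peak, given below.

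Promoter sequences are shown for the called members whose window lies in a peak. For Sirt2 and Sirt7 that peak is the called TSS peak, while the Hdac4 window lies in the peak at its RefSeq start, which was not called. They are RefSeq windows of GRCm38.p6, written 5′ to 3′ on the strand of the gene, with matches on either strand to the CCAAT box, to the GC box GGGCGG and to the TATA box TATAAA in capitals. The windows are chr1:92180292-92180591 (minus strand) for Hdac4, which is the stronger RefSeq start, chr7:28766502-28766801 (plus strand) for Sirt2 and chr11:120624965-120625264 (minus strand) for Sirt7.
Hdac4: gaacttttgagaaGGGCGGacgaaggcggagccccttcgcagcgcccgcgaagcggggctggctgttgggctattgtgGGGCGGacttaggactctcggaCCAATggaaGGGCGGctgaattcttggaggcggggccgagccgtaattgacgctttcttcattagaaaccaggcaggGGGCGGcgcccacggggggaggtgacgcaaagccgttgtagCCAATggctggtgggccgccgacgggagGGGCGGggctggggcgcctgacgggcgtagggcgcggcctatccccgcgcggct
Sirt2: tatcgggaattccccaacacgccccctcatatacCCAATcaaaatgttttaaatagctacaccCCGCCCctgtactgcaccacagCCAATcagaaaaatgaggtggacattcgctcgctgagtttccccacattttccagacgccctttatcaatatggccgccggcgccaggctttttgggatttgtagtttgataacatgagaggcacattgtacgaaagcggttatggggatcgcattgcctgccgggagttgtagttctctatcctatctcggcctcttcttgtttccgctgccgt
Sirt7: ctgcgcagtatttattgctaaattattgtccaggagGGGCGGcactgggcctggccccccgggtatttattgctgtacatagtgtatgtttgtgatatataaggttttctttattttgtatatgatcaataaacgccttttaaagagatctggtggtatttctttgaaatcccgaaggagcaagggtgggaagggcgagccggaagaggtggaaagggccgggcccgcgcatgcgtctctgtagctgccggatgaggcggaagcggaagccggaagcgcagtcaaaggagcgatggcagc
Hdac4 carried 5 GGGCGG and 2 CCAAT matches at 68.0% G+C, Sirt2 carried 1 and 2 at 50.0%, and Sirt7 carried 1 and 0 at 51.3%. Over the 28 member windows in a TSS peak the median was 66.7% G+C, so Sirt2 and Sirt7 were among the poorer in G+C. GGGCGG, the core of the GC box bound by SP family factors, stood in 24 of the 28 windows (85.7%), in 35.7% of all 32851 RefSeq windows and in 64.5% of the 15095 windows that touch a peak. CCAAT, the core of the NF-Y motif, stood in 9 of 28 (32.1%), beside 37.4% and 36.6%. TATAAA stood in 1 of 28 (3.57%, Mbd3), beside 13.6% and 6.43%. These are matches of letters and were not tested.

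The other peaks of the same genes lie in introns or upstream. In Taf4a sKO MuSCs, 6 of the 26 other peaks rose and 3 fell. That is 23.1% higher and 11.5% lower, beside 27.5% higher and 13.5% lower among the 9134 other peaks of all protein-coding genes, so the share of calls was near the background in both directions. None was gained and 2 were lost, beside 5.42% gained and 4.44% lost of all such peaks. With TMM factors 4 were higher and 5 lower, beside 2286 higher and 2082 lower of the 9134. The median log2 fold change was 0.074 beside 0.092 over all protein-coding other peaks, and -0.037 beside -0.019 with TMM factors. The members' summed share of the signal of all protein-coding other peaks was 0.409% to 0.412% in control and 0.391% to 0.398% in Taf4a sKO libraries, without overlap.

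The higher other peaks belonged to an acetyltransferase, a deacetylase and remodelling subunits. At Kat2b, which encodes PCAF, an acetyltransferase and coactivator of MyoD, an intronic peak 3040 bp into the gene (chr17:53569665-53570137) had 260, 227 and 277 in control and 451, 386 and 448 in Taf4a sKO libraries. The genotypes were well apart, with a log2 fold change of 0.75 ± 0.14 (SE, limma adjusted p = 0.000149). At Bptf, the reader subunit of the NURF remodeller, an intronic peak (chr11:107124170-107124924) had 390, 349 and 487 in control and 623, 600 and 566 in Taf4a sKO libraries. All Taf4a sKO values were above control, at a log2 fold change of 0.56 ± 0.14 (SE, limma adjusted p = 0.00191). An intronic peak of Hdac7 (chr15:97837585-97838280), close to the lower peak described above, had 228, 232 and 293 in control and 355, 369 and 365 in Taf4a sKO libraries. That peak rose by 0.54 ± 0.14 on the log2 scale (SE, limma adjusted p = 0.00373), opposite to its neighbour. Mta1, a NuRD subunit, had 225, 241 and 269 in control and 390, 354 and 319 in Taf4a sKO libraries at an intronic peak (chr12:113106294-113107107), with a log2 fold change of 0.53 ± 0.14 (SE, limma adjusted p = 0.00429). These 4 calls, and the lower call of Arid2 below, held under all 16 alternatives.

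A pair of higher calls was weak. Arid1a, the defining subunit of the canonical BAF complex, had 760, 695 and 779 in control and 963, 870 and 888 in Taf4a sKO libraries at an intronic peak (chr4:133751515-133751898), with a log2 fold change of 0.28 ± 0.11 (SE, limma adjusted p = 0.0427). The peak 3614 bp upstream of Mbd2, a reader of methylated CpG in NuRD, had 672, 694 and 857 in control and 887, 940 and 888 in Taf4a sKO libraries, with a log2 fold change of 0.30 ± 0.12 (SE, limma adjusted p = 0.0459). Neither peak overlapped between genotypes, but both calls were lost with each of the 4 other scalings and without any single replicate other than control replicate 3, and without the variance trend. Over the alternatives the adjusted p ranged from 0.00546 to 0.425 for Arid1a and from 0.000569 to 0.394 for Mbd2. With a single replicate left out, it was 0.0807 to 0.175 and 0.0853 to 0.219 where the call was lost.

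Lower other peaks were found at Arid2, Hdac4 and Sirt5. Arid2, a DNA-binding subunit particular to the PBAF form of SWI/SNF, had 89, 105 and 87 in control and 25, 42 and 44 in Taf4a sKO libraries at an intronic peak (chr15:96297119-96297680) 9882 bp from the TSS. The groups were far apart, and the peak was lost, with a log2 fold change of -1.35 ± 0.24 (SE, limma adjusted p = 9.41e-05). The peak 5551 bp upstream of Hdac4 (chr1:92201153-92201346) had 31, 34 and 49 in control and 21, 15 and 19 in Taf4a sKO libraries, all low values. It counted as lost, with a log2 fold change of -0.997 ± 0.32 (SE, limma adjusted p = 0.0135), and without control replicate 3 the adjusted p was 0.0585, in a range of 0.00509 to 0.0585 over 15 alternatives. At a minimum mean of 50 this peak is not tested. Sirt5, a mitochondrial sirtuin that removes succinyl groups, had 71, 91 and 86 in control and 61, 51 and 55 in Taf4a sKO libraries at an upstream peak (chr13:43362269-43362519). No Taf4a sKO value reached a control value, at a log2 fold change of -0.56 ± 0.21 (SE, limma adjusted p = 0.0348), and the call was lost without control replicate 2 (0.133) and without Taf4a sKO replicate 2 (0.108) or 3 (0.0865), in a range of 0.00823 to 0.133.

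The next 3 other peaks by adjusted p were not called. They were an intronic peak of Mbd2 (log2 fold change 0.45 ± 0.18 SE, limma adjusted p = 0.0516, overlapping groups), a peak 9831 bp upstream of Hdac2 (0.40 ± 0.18, 0.0744, groups apart) and a peak 6605 bp upstream of Chd4 (0.24 ± 0.12, 0.105, overlapping groups).

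**Figure D3:**
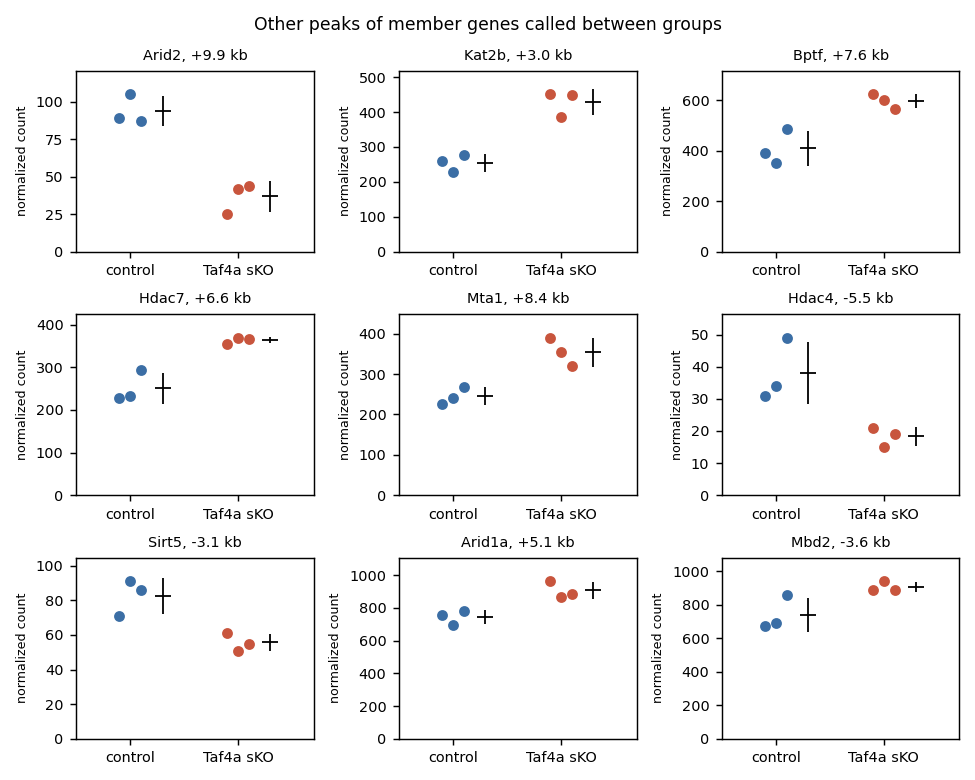
Normalized read count (y axis, from 0) of the 9 other peaks with an adjusted p under 0.05, with the gene and the distance from the gene start above each panel, 1 point per library (blue for control and red for Taf4a sKO) and the mean ± SD (n = 3) beside them. In each of the 9 panels the genotypes do not overlap, and Arid2, Hdac4 and Sirt5 are the panels in which Taf4a sKO is lower.

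The centres of the 4 other peaks with the smallest adjusted p are printed to show the base composition and motifs of the regions with the firmest calls. Each is 300 bases of GRCm38 on the plus strand, with matches on either strand to the AP-1 motif TGANTCA, to the E-box CAGCTG and to the CCAAT box in capitals, from chr15:96297250-96297549 (Arid2), chr17:53569752-53570051 (Kat2b), chr11:107124398-107124697 (Bptf) and chr15:97837783-97838082 (Hdac7).
Arid2: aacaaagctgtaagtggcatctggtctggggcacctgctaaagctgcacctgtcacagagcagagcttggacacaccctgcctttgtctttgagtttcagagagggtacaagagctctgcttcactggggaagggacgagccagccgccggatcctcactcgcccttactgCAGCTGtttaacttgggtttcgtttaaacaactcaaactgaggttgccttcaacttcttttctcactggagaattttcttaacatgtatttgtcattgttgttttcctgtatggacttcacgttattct
Kat2b: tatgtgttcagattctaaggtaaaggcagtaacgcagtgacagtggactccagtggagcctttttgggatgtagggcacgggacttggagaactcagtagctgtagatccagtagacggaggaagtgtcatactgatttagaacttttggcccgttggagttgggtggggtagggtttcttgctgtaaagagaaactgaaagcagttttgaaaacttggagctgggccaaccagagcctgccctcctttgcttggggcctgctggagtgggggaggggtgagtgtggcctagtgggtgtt
Bptf: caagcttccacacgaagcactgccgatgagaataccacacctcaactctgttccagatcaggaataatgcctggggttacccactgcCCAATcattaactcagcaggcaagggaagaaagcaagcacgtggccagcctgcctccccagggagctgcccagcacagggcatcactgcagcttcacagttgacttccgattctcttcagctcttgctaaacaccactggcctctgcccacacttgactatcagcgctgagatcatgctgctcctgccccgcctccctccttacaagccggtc
Hdac7: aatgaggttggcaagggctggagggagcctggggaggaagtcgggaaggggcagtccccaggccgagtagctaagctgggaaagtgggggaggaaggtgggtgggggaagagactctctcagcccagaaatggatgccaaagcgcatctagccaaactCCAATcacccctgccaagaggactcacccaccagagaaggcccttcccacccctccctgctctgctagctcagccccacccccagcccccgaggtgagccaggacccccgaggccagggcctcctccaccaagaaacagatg
The lower Arid2 peak held 1 CAGCTG, the E-box letters preferred by myogenic factors, and the higher Bptf and Hdac7 peaks held 1 CCAAT each, while the Kat2b centre held none of these. Over the members' other peaks, CAGCTG stood in 9 of 26 centres (34.6%), in 0 of the 6 higher and in 2 of the 3 lower ones. Over all protein-coding other peaks it stood in 30.3%, in 25.9% of the higher and in 44.1% of the lower ones. TGANTCA, the AP-1 motif, stood in 5 of 26 (19.2%), in 2 of the 6 higher and in 0 of the 3 lower ones, beside 22.3% of all, 33.2% of the higher and 15.3% of the lower ones. CCAAT stood in 12 of 26 (46.2%) beside 31.2%. No test was run on these shares.

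Other peaks and TSS peak of the same gene were then compared within each library, so that any factor common to a library cancels. For each of the 19 members with both, the mean log2 value of the other peaks minus the log2 value of the TSS peak was fitted with limma beside all 8745 genes of this kind. This difference was higher in Taf4a sKO MuSCs at 5 members (Hdac7, Kat2b, Sirt1, Mta1 and Bptf) and lower at 3 (Hdac4, Arid2 and Sirt5), where 19.3% of all genes were higher and 18.3% lower. The median change was 0.038 over the members and 0.0045 over all genes. The largest was at Hdac4, where the difference went from -4.64, -4.38 and -4.40 in control to -5.69, -6.16 and -5.82 in Taf4a sKO libraries, a change of -1.42 ± 0.17 (SE, limma adjusted p = 0.00153) made of a lower upstream peak and a higher TSS peak. It held under all 12 alternatives run. For Arid2 the change was -0.71 ± 0.15 (adjusted p = 0.00967), but with the other peaks summed it was -0.027 (adjusted p = 0.815), since the sum is made up mostly of the upstream peak, at 2130 in control. Sirt5 changed by -0.65 ± 0.15 (adjusted p = 0.0133) and Kat2b by 0.59 ± 0.11 (adjusted p = 0.00538). Hdac7 changed by 0.64 ± 0.18 (adjusted p = 0.0301), against a TSS peak that is itself intronic and lower. Sirt1 changed by 0.53 ± 0.17 (adjusted p = 0.0411), against the weak annotated TSS peak rather than the strong one at the RefSeq start. Mta1 changed by 0.50 ± 0.10 (adjusted p = 0.00874) and Bptf by 0.40 ± 0.11 (adjusted p = 0.0229). The calls of Kat2b and Mta1 held with any single library left out, while those of Bptf, Hdac7 and Sirt1 were lost in most such fits. For Bptf the adjusted p was 0.0568 to 0.0814 without any single library other than control replicate 3. For Hdac7 the adjusted p was 0.0513 to 0.0892 and for Sirt1 0.0579 to 0.116 when any control replicate or Taf4a sKO replicate 2 or 3 was left out. With control replicate 1 or 2 or Taf4a sKO replicate 2 or 3 left out, 2 members were higher, with control replicate 3 left out 3 were, and with Taf4a sKO replicate 1 left out 4 were, while 3 were lower in each of these fits.

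**Figure D4:**
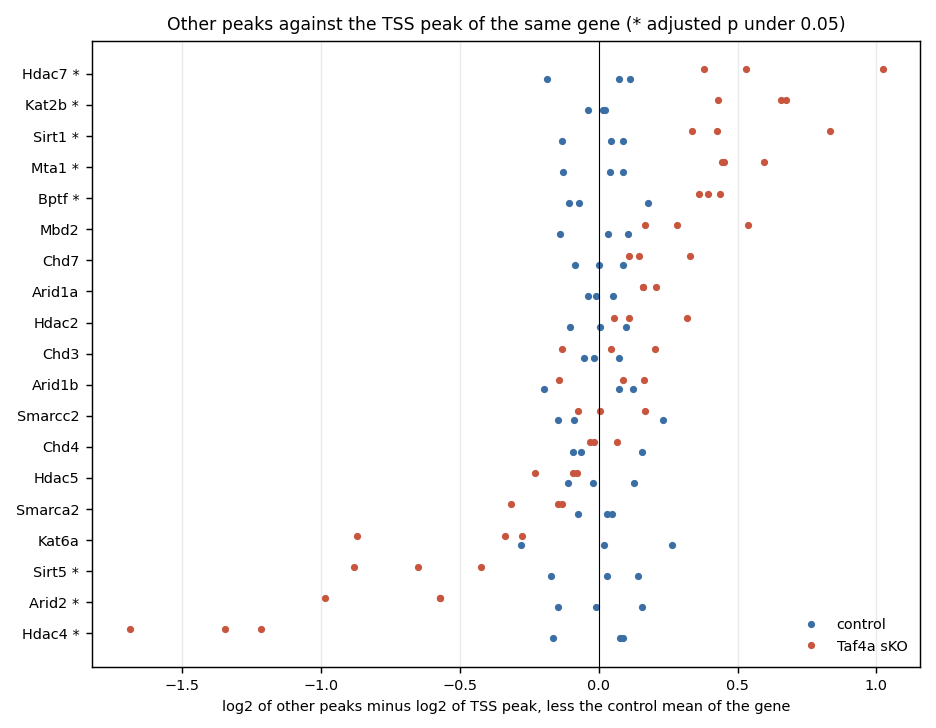
Mean log2 value of the other peaks minus log2 value of the TSS peak (x axis), shown less the control mean of each gene, for the 19 member genes with both (y axis), with 1 point per library (blue for control and red for Taf4a sKO). The red points of Hdac4, Arid2 and Sirt5 lie left and those of Hdac7, Kat2b, Sirt1, Mta1 and Bptf right of all blue points of the same gene.

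The 6 listed genes without a peak of their own symbol were Kat6b, Ncor1, Brd2, Hdac3, Brd9 and Sirt3. Except for Kat6b, the GENCODE start of each lay in a peak that the table lists under a neighbouring gene, Pigl for Ncor1, H2-DMa for Brd2, Rell2 for Hdac3, Trip13 for Brd9 and Psmd13 for Sirt3. None of these 5 peaks was called, with log2 fold changes from -0.082 to 0.060. Brd2, a BET reader of acetylated histones, had the strongest of them, with 10086, 8666 and 11193 in control and 10318, 9064 and 8815 in Taf4a sKO libraries. The groups overlapped (log2 fold change -0.082 ± 0.11 SE, limma adjusted p = 0.568), and with TMM factors Brd2 (-0.19, adjusted p = 0.00616) and Ncor1 (-0.14, adjusted p = 0.0144), the scaffold of an HDAC3 corepressor complex, were lower. The RefSeq start of Kat6b lay in a strong peak without a gene in the table (chr14:21499491-21501549), with 7205, 6421 and 8156 in control and 8386, 7195 and 7175 in Taf4a sKO libraries. Those values overlapped (log2 fold change 0.066 ± 0.10 SE, limma adjusted p = 0.651).

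Most accessible sites inside these genes carry no gene in the deposited annotation, which reaches at most 10938 bp from a TSS. Within the bodies of 24 member genes (GENCODE vM21) 144 such peaks were found, and they are given apart from them. Of the 144, 31 were higher (21.5%) and 31 lower (21.5%), beside 32.8% higher and 16.2% lower among 22644 peaks of this kind in all protein-coding genes. By the thresholds 4 were gained and 10 lost, where 8.42% of all such peaks were gained and 6.35% lost. With TMM factors 28 were higher and 39 lower, beside 6691 higher and 5107 lower of the 22644. Without control replicate 3, 50 were higher. Of the 62 called peaks, 57 lay in introns and 60 had no overlap between genotypes. Among all protein-coding genes 10465 of 11081 called peaks of this kind had no overlap, a similar share. Peaks of 1 gene share a locus and are not independent, and other transcripts nested in these genes were not separated.

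Arid1b held 31 of the 144 peaks, of which 4 were higher and 12 lower, with 5 lost. Over its 353.3 kb, higher calls lay 100.6 to 216.1 kb from the gene start and lower calls 26.4 to 341.9 kb. Within the part up to 216.1 kb, 4 of 16 peaks were higher and 1 lower. In the part beyond it 11 of 15 were lower, with a median log2 fold change of -0.52 there. This division was set at the farthest higher peak after the values were seen, so no higher call could lie beyond it. The counts and the median of both parts are therefore a description only. In the first part, 1 further lower peak (at 112880 bp, log2 fold change -0.74) is listed under another gene. The deepest fall (chr17:5330425-5331162) went from 374, 286 and 473 in control to 80, 81 and 114 in Taf4a sKO libraries, far below every control value, at a log2 fold change of -2.02 (limma adjusted p = 1.01e-07). The strongest of the lower peaks (chr17:5295049-5296141) had 2076, 1622 and 2177 in control and 1106, 1022 and 1036 in Taf4a sKO libraries, a log2 fold change of -0.88 (limma adjusted p = 2.01e-06). The TSS peak of Arid1b, with 4012, 3809 and 4596 in control and 4037, 3890 and 3827 in Taf4a sKO libraries, overlapped between genotypes.

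At Hdac4, 6 of its 23 body peaks were higher (26.1%) and 1 was lower (4.35%). Both shares were under the 32.8% higher and 16.2% lower of all such peaks in protein-coding genes. The higher peaks lay 50.6 to 139.1 kb from the gene start. The one with the largest fold change was a gained intronic peak (chr1:92056541-92056735) with 31, 32 and 41 in control and 72, 84 and 92 in Taf4a sKO libraries (log2 fold change 1.23, limma adjusted p = 0.000165), and each Taf4a sKO value was above each control value. All 3 body peaks of Kat2b were higher (log2 fold changes 0.29 to 0.58), in the same direction as its annotated other peak. All calls among these body peaks of Arid1a (3 of 5) and Mbd2 (3 of 5) were higher too, while those of Kat6a (2 of 4), Ino80 (2 of 3) and Smarcc1 (2 of 3) were lower. Calls in the other direction lay in peaks of the same gene bodies that are annotated to another gene, 2 higher inside Kat6a (log2 fold changes 0.88 and 0.47) and 1 lower inside Arid1a (-0.55).

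The largest fall among the peaks examined here was inside Smarcc1, the BAF155 core subunit of SWI/SNF. An intronic peak (chr9:110202892-110203294) had 165, 212 and 163 in control and 31, 36 and 31 in Taf4a sKO libraries. The genotypes were far apart, with a log2 fold change of -2.42 (limma adjusted p = 6.04e-09). At Hdac5, a class IIa deacetylase like Hdac4, 3 of 6 body peaks were lower and 2 of them lost, the stronger (chr11:102207862-102208461) with 175, 148 and 144 in control and 60, 63 and 54 in Taf4a sKO libraries (log2 fold change -1.38, limma adjusted p = 2.86e-06). The TSS peaks of both genes were not called (log2 fold changes -0.019 and 0.13).

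Kat6b, the MORF acetyltransferase, had no annotated peak but 17 body peaks, of which 2 were higher and 4 lower. Its gained intronic peak (chr14:21507118-21507430) had 53, 61 and 95 in control and 182, 171 and 165 in Taf4a sKO libraries (log2 fold change 1.34, limma adjusted p = 1.38e-05), without overlap. Its lost peak (chr14:21631640-21632192) went from 136, 110 and 131 to 75, 36 and 62 (log2 fold change -1.17, limma adjusted p = 0.000432). Chd7, a remodeller that acts at enhancers, was balanced, with 3 of 14 higher and 3 lower. Its gained intronic peak (chr4:8725593-8726239) had 157, 171 and 177 in control and 409, 375 and 412 in Taf4a sKO libraries (log2 fold change 1.24, limma adjusted p = 3.66e-07), and the groups were well separated. Hdac9, whose nearest annotated peak was lost, had a gained peak at the far end of the gene (chr12:34074854-34075061), 842138 bp from its TSS, with 60, 63 and 90 in control and 161, 143 and 155 in Taf4a sKO libraries (log2 fold change 1.12, limma adjusted p = 5.72e-05). With TMM factors no Hdac9 body peak passed as gained, and of its 3 body peaks 2 were higher and 1 lower. The body peaks named in this and the preceding paragraphs were chosen after their values were seen.

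**Figure D5:**
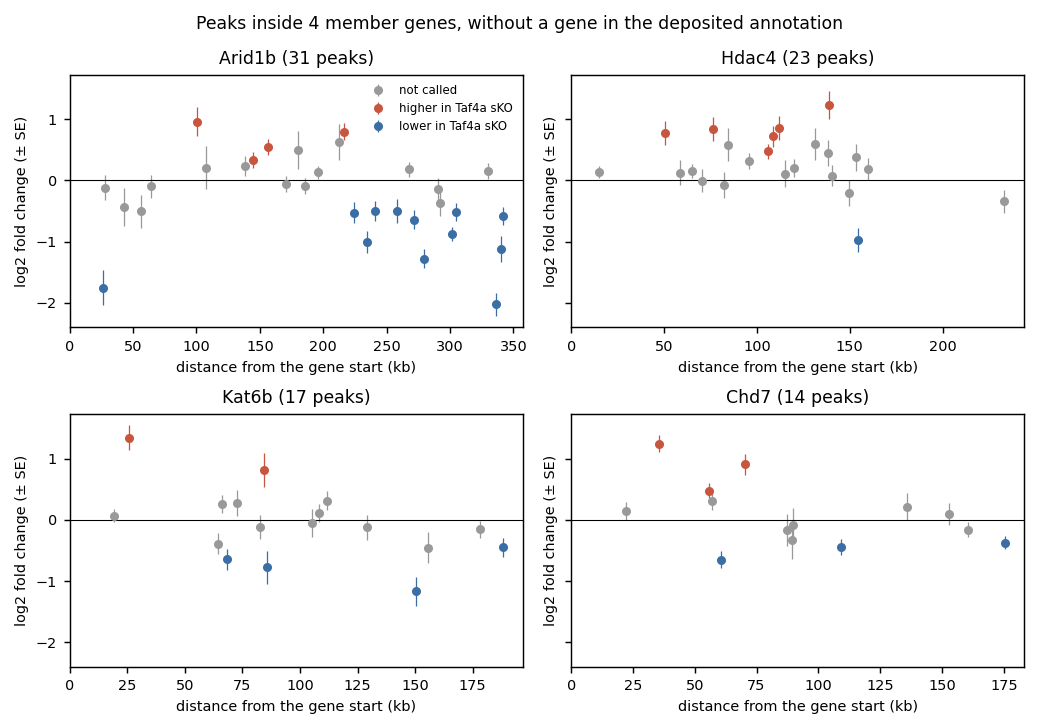
Log2 fold change with its SE (y axis, Taf4a sKO minus control, n = 3 each) against the distance from the gene start in kb (x axis) for peaks inside Arid1b (31), Hdac4 (23), Kat6b (17) and Chd7 (14) that carry no gene in the deposited annotation. Blue points (lower, adjusted p under 0.05) fill the far part of Arid1b, and red points (higher) lie between 50.6 and 139.1 kb in Hdac4.

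Other genes of the pathway were counted in the same way. Of 85 further acetylation and remodelling genes, 77 had a peak. Among their 77 TSS peaks 3 were higher (Supt3, Bcl7c and Morf4l1, with log2 fold changes of 0.35, 0.26 and 0.26) and none was lower in limma, where 7 were higher and none lower at an unadjusted p under 0.05. The 3 make 3.90%, beside the 11.5% higher and 7.22% lower of all protein-coding TSS peaks given above. With TMM factors 4 were higher and 12 lower, beside 1588 higher and 3311 lower of all 14219 protein-coding TSS peaks. Without control replicate 3, 22 pathway TSS peaks were higher, while leaving out any other single replicate gave 1. Among their 50 other peaks 12 were higher and 5 lower. Of the 17, 3 were gained and 1 was lost. All protein-coding other peaks were higher in 27.5%, lower in 13.5%, gained in 5.42% and lost in 4.44% of cases, so these counts were near the background or under it. The gained peak near Smarce1, the BAF57 subunit of SWI/SNF (chr11:99221854-99222113), had 32, 34 and 44 in control and 161, 125 and 141 in Taf4a sKO libraries (log2 fold change 1.93, limma adjusted p = 2.09e-07). Gained peaks near Ncoa3, a nuclear receptor coactivator, and Hdac11, a class IV deacetylase, rose by 1.47 and 1.06 on the log2 scale (limma adjusted p = 8.07e-07 and 0.000219). The lost peak near Ncoa1 (chr12:4481782-4482000) had 160, 140 and 148 in control and 51, 78 and 70 in Taf4a sKO libraries, a log2 fold change of -1.18 (limma adjusted p = 3.63e-05). Without control replicate 3, 19 other peaks were higher, and without Taf4a sKO replicate 2, 3 were lower.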

How the data were processed

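ATAC-seq libraries of MuSCs from 3 control and 3 Taf4a sKO mice were used. Per the labels and methods, the authors trimmed reads with Trimmomatic 0.39, aligned them with STAR 2.7.11b to mm10, removed duplicates with Picard 3.1.1, called peaks with MACS, unified them and counted reads with featureCounts. A shift for the Tn5 insertion is not given in the sources used here. The deposited score of a peak is this count normalized for depth by the authors and rounded, so no count test was applied, and scaling can move small differences. The deposited distance to the TSS defined TSS and other peaks. Here, peaks with a mean above 10 (75384) were fitted with limma 3.58.1 (R 4.3.3, trend and robust moderation) on log2(value + 1), and Benjamini-Hochberg adjustment ran over all of them. Fold changes are on this scale. The code was tested on simulated data. Gene features came from GENCODE vM21 and sequences from RefSeq GRCm38.p6, read with pysam 0.24.0. Members and lists were chosen with earlier results of these data known. Named were members with a called TSS peak, gained or lost peaks, the 12 other peaks with the smallest adjusted p, the highest and lowest TSS level per kb and the 6 largest differences between other and TSS peaks. Precision rests on the spread of 3 libraries per group, and p-values measure only that spread. Groups followed the labels. Alternatives covered scaling, pseudocount, filter, moderation, the replicate block and leaving out each replicate. Unused value columns numbered 0.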

Additional observations from a re-analysis of the deposited data

How the results depend on the processing

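TSS peaks counted 4 higher with TMM, median-of-ratios and quantile scaling, and 11, 11, 15 and 14 lower with TMM, median-of-ratios, equal total signal and quantile normalization. Lower other peaks counted 5, 5, 5 and 6 in the same order. The median log2 fold change turned to -0.034, -0.035, -0.070 and -0.061 for TSS peaks and to -0.037, -0.039, -0.074 and -0.071 for other peaks. Pathway TSS peaks counted 12, 13, 20 and 19 lower, and 7 higher with quantile normalization, and pathway other peaks 8, 8, 11 and 8 lower. Without trend and robust moderation no member or pathway TSS peak was higher (0 and 0). The TSS peak of Mbd3, not called with the authors' scaling, had log2 fold changes of -0.083, -0.084, -0.12 and -0.071 under these scalings. It was called lower with equal total signal (limma adjusted p = 0.0121) and with quantile normalization (0.0405). Its log2 fold change was -0.046 without control replicate 2, -0.028 without Taf4a sKO replicate 1 and up to 0.092 with another replicate left out. With TSS peaks within 1000 bp, 1 was lower. Of member peaks 1 was gained at 1.5-fold, 1 lost at a minimum mean of 50 and 0 lost at a log2 threshold of 1.5; the first follows from the smaller threshold and the others from fewer peaks passing. Leaving out each replicate gave 0 to 11 higher and 1 to 3 lower TSS peaks, 4 to 8 higher and 2 to 3 lower other peaks, 0 gained and 2 to 3 lost peaks, medians of 0.00080 to 0.14 and 0.0094 to 0.13, 2 to 4 higher and 3 lower members against the TSS peak, 25 to 50 higher and 25 to 30 lower gene-body peaks, and 1 to 22 and 0 (TSS) and 10 to 19 and 3 to 6 (other) higher and lower pathway peaks. Same-numbered libraries come from different animals, and their deviations from the group means correlated at 0.11, -0.12 and -0.029. These values show no pairing by number, but from groups of 3 they cannot exclude a shared litter or preparation. With the replicate number as a block, the calls of the Arid1a (adjusted p = 0.0528) and Mbd2 intron (0.0267) peaks changed, no other single call did, and 1 pathway TSS peak was higher. The alternatives for gene-body, pathway and Taf4 peaks were added after seeing the data. The cause of these changes was not tested. Depth limits the weakest peaks, with values under 50, and groups of 3 were not tested for outliers.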

Other observations

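Some peaks lie inside a member gene, away from its start, but are listed under a neighbouring gene, and were not counted with the gene-body peaks above. The largest difference among them was at an intronic peak of Mta1 listed under Crip2 (chr12:113132431-113133298). It had 220, 201 and 213 in control and 648, 533 and 542 in Taf4a sKO libraries, far above every control value, with a log2 fold change of 1.43 ± 0.14 (SE, limma adjusted p = 3.61e-08). The annotated intronic peak of Mta1 was higher too, while its TSS peak was not called.

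Sirt2, whose TSS peak was higher, held 2 further higher peaks in introns. The peak listed under Nfkbib (chr7:28773205-28773497) had 85, 97 and 136 in control and 203, 219 and 223 in Taf4a sKO libraries (log2 fold change 1.04 ± 0.18 SE, limma adjusted p = 5.78e-05) and counted as gained. The peak listed under Rinl (chr7:28780136-28781103) had 497, 521 and 627 in control and 964, 974 and 992 in Taf4a sKO libraries (log2 fold change 0.84 ± 0.12 SE, limma adjusted p = 5.86e-06). Neither overlapped between genotypes. These peaks were chosen after their values were seen, and which gene they belong to was not tested. No share of calls was computed for peaks inside a gene that are listed under a neighbour. Of all peaks without a gene inside protein-coding gene bodies, 32.8% were higher and 8.42% gained.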
